A study of Mus musculus with 4 samples.

Results

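Fatty acid handling was described through 8 genes: the carriers Fabp4 and Fabp5, the uptake genes Cd36 and Lpl, the lipid droplet coat gene Plin2, the nuclear receptor gene Pparg, and the oxidation genes Cpt1a and Acadl. They were found by gene symbol among the 45773 genes shared by the 4 deposited tables, and all 8 were present. The genes were selected on their TPM values and differences in these same libraries, so their levels are given as a description and no test supports them. Expression was in TPM, a value per transcript length that sums to the same total in every library.

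The libraries were made by SMART-seq, which amplifies full-length cDNA from few cells, and each of the 4 groups held 1 library. The gain experiment used Pmel-I CD8 T cells, whose transgenic receptor recognises the melanocyte antigen gp100, transduced with Klf4 or with the retroviral vector MigRI. They were given intravenously on day 7 to Rag2 KO mice bearing MC38-gp100 tumours, and GFP+ cells were recovered from the tumours on day 15. Rag2-deficient hosts lack their own mature T and B cells but keep myeloid, endothelial and stromal cells. In the loss experiment, PD1+ CD8+ tumour-infiltrating cells were taken on day 14 from MC38 tumours of mice labelled Klf4 cKO and of control (WT) mice. MC38 is a mouse colon carcinoma line, 300000 tumour cells were injected, and each sample yielded 10000 to 20000 T cells. The Cre driver and floxed part of Klf4, the ages and the number of animals behind each library are not stated in the sources. With 1 library per group, no difference below has a replicate check, a standard deviation or a p-value, and the read depth is unknown.

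Long-chain fatty acids enter a cell with the help of the scavenger receptor CD36 or after lipoprotein lipase frees them from circulating triglyceride. FABP proteins carry them in the cytosol, perilipins coat the droplets in which they are stored, and carnitine palmitoyltransferase 1 passes them into mitochondria for beta-oxidation. PPAR-gamma is a lipid-activated receptor whose known targets in adipocytes and macrophages include Fabp4, Cd36, Lpl and Plin2. In mouse CD8 T cells, Fabp4, Fabp5 and Cd36 are known for lipid uptake in tissue-resident and tumour-infiltrating cells, and Fabp4, Cd36 and Lpl are also abundant in capillary endothelium, adipocytes or macrophages.

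The Klf4 transcript itself was at 26.0 TPM in the Klf4-transduced library and 8.69 TPM in the MigRI library. It was at 9.28 TPM in the Klf4 cKO-labelled library and 7.52 TPM in control, so a gene-level value does not check that label, and directions drawn from it rest on the label. The 8 defining CD8 T cell markers were detected in all 4 libraries. Their TPM summed to 751 with Klf4 and to 5776 in MigRI, and to 12014 in the Klf4 cKO-labelled library and 6021 in control. In the Klf4-transduced library 12 macrophage and monocyte markers summed to 4114 TPM, more than its CD8 T cell markers. Over 12570 measured genes, those whose TPM averaged at least 1 across libraries, the median difference of log2(TPM + 1) was 0.79 between Klf4-transduced and MigRI and 0.74 between Klf4 cKO and control. Each difference is therefore given as deposited and, as a relative difference, after median centring, which subtracts that median. In the gain experiment the median varied with coding transcript length. Among measured genes within 1.5-fold of the length of Fabp4 it was -0.09 log2, and for Fabp5 0.12 log2. For the other members it lay between 1.11 and 1.32 log2. In these bulk samples, fewer cells of a type and less RNA per cell cannot be told apart.

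Transduction with Klf4 was set against the empty vector to ask which transcripts differ when the factor is supplied. Plin2 and Lpl were higher in the Klf4-transduced library and Fabp5 was lower. As deposited, 3 of the 8 genes (Fabp4, Lpl and Plin2) were at least 2-fold higher, against 43.7% of all measured genes, and 1 (Fabp5) was at least 2-fold lower, against 10.3%. After median centring, 2 were higher (Lpl and Plin2), against 21.4% of measured genes, and 1 was lower (Fabp5), against 23.6%. The median difference of the 8 genes was 0.79 as deposited, the same to 2 decimals as that of all measured genes.

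Mice labelled Klf4 cKO were set against control mice to ask which transcripts differ when the factor is lost. Fabp4, Plin2 and Acadl were higher in the Klf4 cKO-labelled library. These 3 of 8 genes were at least 2-fold higher as deposited, against 38.4% of measured genes, and also after median centring, against 12.4%. None of the 8 was at least 2-fold lower on either scale, against 6.92% and 16.2%. The median difference of the 8 genes was 0.76 as deposited and 0.02 after median centring. Over the 6 measured members it was 1.43 as deposited and 0.69 after median centring. Cd36 and Pparg had a mean under 1 TPM and did not count as measured, but they are included in these counts of 8.

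**Figure D1:**
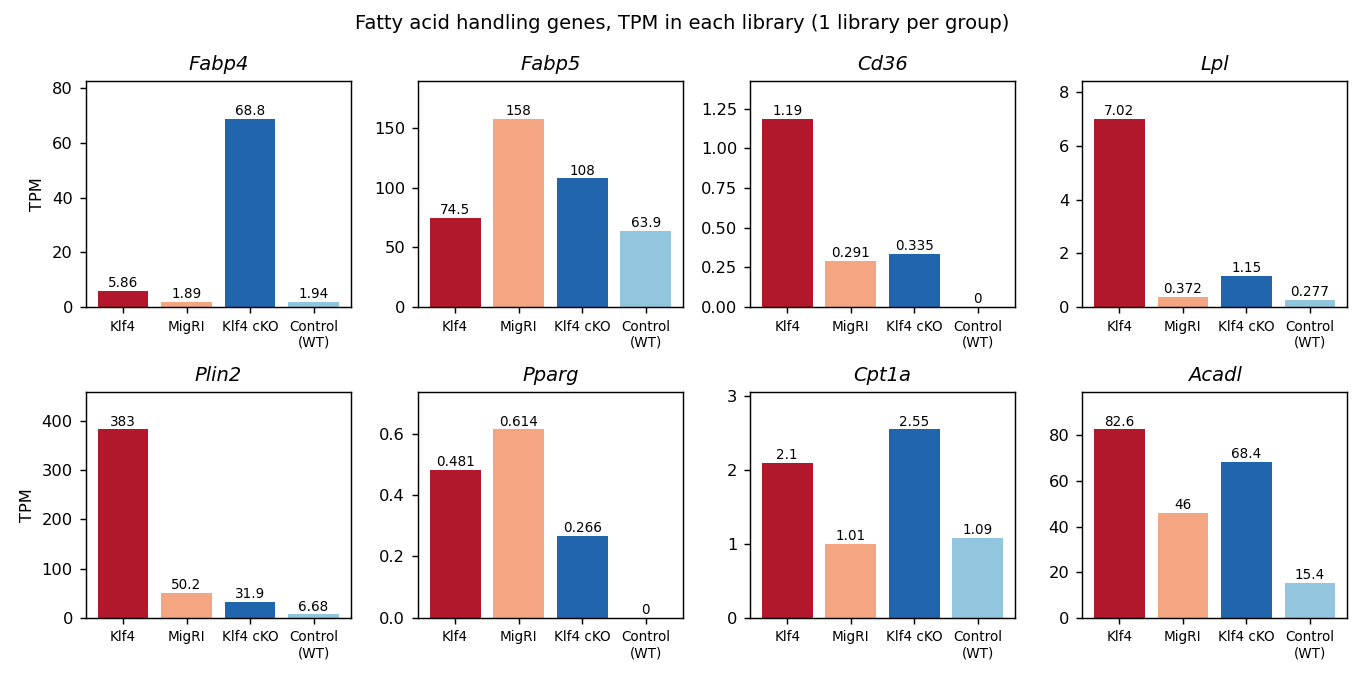
TPM of each of the 8 genes in the Klf4-transduced, MigRI, Klf4 cKO and control (WT) libraries; each bar is 1 library, each panel has its own axis from 0, and the number above a bar is its TPM. Plin2 is highest in the Klf4-transduced library at 383 TPM and Fabp4 in the Klf4 cKO-labelled library at 68.8 TPM.

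Fabp4, the adipocyte fatty acid carrier also called aP2, was at 5.86 TPM in the Klf4-transduced library and 1.89 TPM in MigRI. It was at 68.8 TPM in the Klf4 cKO-labelled library and 1.94 TPM in control. The library labelled Klf4 cKO thus stood apart from the other 3, which lay between 1.89 and 5.86 TPM. For Klf4 cKO over control the difference was 4.57 log2 as deposited and 3.83 log2 after median centring, which ranked 8 from the top among 12570 measured genes. That difference stayed at least 2-fold under all 10 alternative settings computed for it, with values from 2.75 to 5.08 log2. For Klf4-transduced over MigRI it was 1.25 log2 as deposited and 0.45 log2 after median centring, so the 2-fold call ended with that scaling, and it was kept under 5 of 10 alternatives. Among those 5 was the difference relative to measured genes of like coding transcript length, at 1.34 log2.

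Fabp5, the epidermal fatty acid carrier, was at 74.5 TPM in the Klf4-transduced library and 158 TPM in MigRI. It was at 108 TPM in the Klf4 cKO-labelled library and 63.9 TPM in control. The gene was the most abundant of the 8 in MigRI, Klf4 cKO and control, where it held 61.1%, 38.4% and 71.6% of their summed TPM, and held 13.4% in the Klf4-transduced library. For Klf4-transduced over MigRI the difference was -1.07 log2 as deposited and -1.87 log2 after median centring. It was -1.19 log2 relative to measured genes of like coding transcript length. It was 0.96 log2 relative to the receptor constant genes Trac, Trbc1 and Trbc2, of which Trac was at 274 TPM in the Klf4-transduced library and 1295 TPM in MigRI. For Klf4 cKO over control it was 0.75 log2 as deposited and 0.01 log2 after median centring, and the sign turned under 5 of 10 alternatives.

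The balance between the carriers differed widely. The ratio of Fabp5 to Fabp4 TPM was 12.7 in the Klf4-transduced library and 83.6 in MigRI. It was 1.57 in the Klf4 cKO-labelled library and 33.0 in control. A ratio within a library does not move with a scaling of the whole library, and it was smaller with Klf4 than in MigRI and smaller in the Klf4 cKO-labelled library than in control. As deposited, Fabp5 was lower and Fabp4 higher with Klf4 than in MigRI, while both were higher in the Klf4 cKO-labelled library than in control.

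Fabp4 and Fabp5 lie on mm10 chromosome 3 in GENCODE vM21, Fabp5 from 10012548 to 10016607 on the plus strand and Fabp4 from 10204088 to 10208576 on the minus strand. Their coding sequences, 399 and 408 nucleotides long, were 61.4% identical over the aligned length, and the longest run of bases they share was 12 nucleotides. Exchange of reads between the pair was not tested. The other family genes of this cluster, Pmp2, Fabp9 and Fabp12, were listed at 0 in all 4 libraries. So were Fabp1, the liver carrier, Fabp2, the intestinal carrier, Fabp6, the bile acid carrier, and Fabp7, the brain carrier. Fabp3, the heart carrier, was at 0.530 TPM in the Klf4-transduced library and listed at 0 in MigRI, and was listed at 0 in the Klf4 cKO-labelled library and at 0.183 TPM in control.

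Dbi, the acyl-CoA binding protein, carries activated fatty acids and was more abundant than every one of the 8 genes in all 4 libraries. It was at 602 TPM in the Klf4-transduced library and 1122 TPM in MigRI, a relative difference of -1.69 log2. It was at 714 TPM in the Klf4 cKO-labelled library and 1375 TPM in control, a relative difference of -1.68 log2. As deposited the differences were -0.90 and -0.94 log2, short of 2-fold. Unlike Fabp5, Dbi was thus below its MigRI level with Klf4 and also below its control level in the Klf4 cKO-labelled library. Acbd3, a Golgi protein of the same domain family, was at 18.9 TPM in the Klf4-transduced library and 16.5 TPM in MigRI, and at 14.7 TPM in the Klf4 cKO-labelled library and 26.2 TPM in control.

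**Figure D2:**
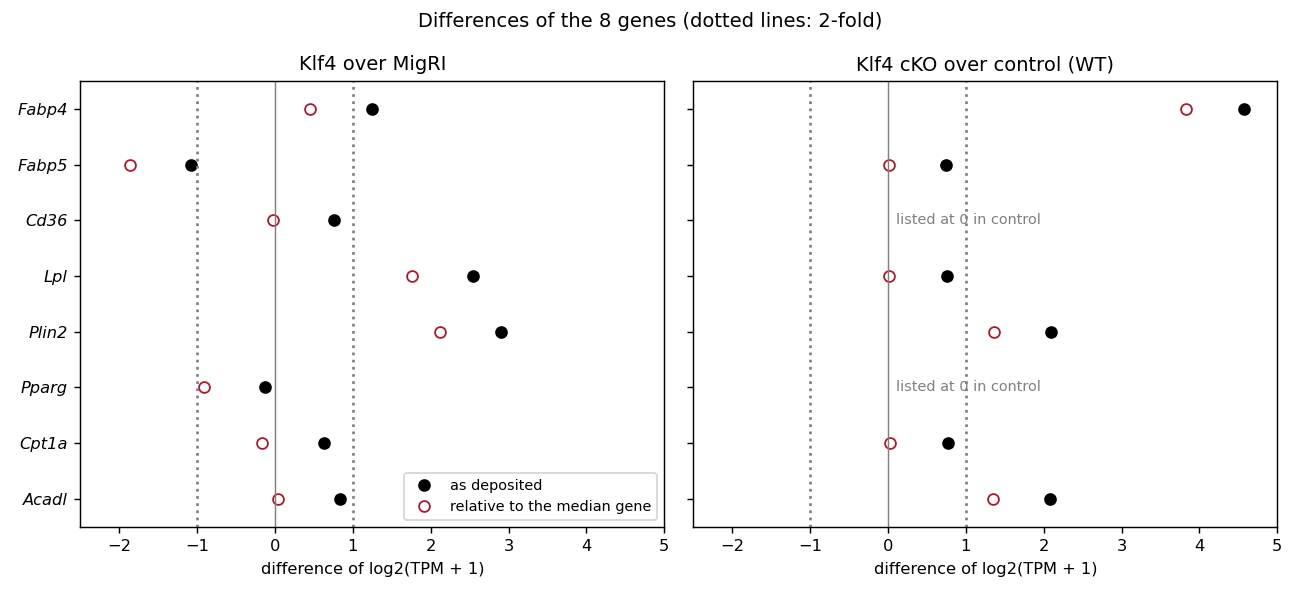
Difference of log2(TPM + 1) of each gene for Klf4-transduced over MigRI (left) and Klf4 cKO over control (right), as deposited (filled) and after median centring (open), with dotted lines at 2-fold. On the relative scale Lpl and Plin2 lie above 2-fold and Fabp5 below on the left, and Fabp4, Plin2 and Acadl lie above on the right.

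Lpl encodes lipoprotein lipase, which is secreted and hydrolyses triglyceride of lipoproteins at the capillary wall. It was at 7.02 TPM in the Klf4-transduced library and 0.372 TPM in MigRI. It was at 1.15 TPM in the Klf4 cKO-labelled library and 0.277 TPM in control. The Klf4-transduced library was the highest and the other 3 were at 1.15 TPM or below. The difference for Klf4-transduced over MigRI was 2.55 log2 as deposited and 1.75 log2 after median centring, and -0.0065 log2 relative to the median of the macrophage and monocyte markers. For Klf4 cKO over control it was 0.76 log2 as deposited and 0.02 log2 after median centring.

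Cd36, the scavenger receptor for long-chain fatty acids and oxidised lipoprotein, was near the lower limit in all 4 libraries. It was at 1.19 TPM in the Klf4-transduced library and 0.291 TPM in MigRI, a difference of 0.76 log2 as deposited and -0.03 log2 after median centring. It was at 0.335 TPM in the Klf4 cKO-labelled library and listed at 0 in control, so no difference is given there. Fabp4 and Cd36 are both known PPAR-gamma targets, and the library in which Fabp4 reached 68.8 TPM had less than 1 TPM of Cd36. With Cd36 this low, whether it shares the pattern of Fabp4 could not be read.

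Pparg was below 1 TPM throughout. It was at 0.481 TPM in the Klf4-transduced library and 0.614 TPM in MigRI, a difference of -0.12 log2 as deposited and -0.92 log2 after median centring. It was at 0.266 TPM in the Klf4 cKO-labelled library and listed at 0 in control. The related receptor genes were also low: Ppara was listed at 0 in all 4 libraries, and Ppard lay between 0.252 and 0.829 TPM. At levels this low, with the read depth unknown, a difference in the receptor genes could not be read.

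Plin2 encodes perilipin 2, the droplet coat protein of most cells outside fat tissue. It was at 383 TPM in the Klf4-transduced library and 50.2 TPM in MigRI. It was at 31.9 TPM in the Klf4 cKO-labelled library and 6.68 TPM in control. The Klf4-transduced library was above MigRI and the Klf4 cKO-labelled library above control, with Klf4-transduced the highest of the 4 and control the lowest. For Klf4-transduced over MigRI the difference was 2.91 log2 as deposited and 2.11 log2 after median centring. For Klf4 cKO over control it was 2.10 log2 as deposited and 1.36 log2 after median centring. It was positive under all 10 alternatives in each experiment, with lowest values of 0.35 and 0.28 log2. The lowest in the gain experiment was relative to the macrophage and monocyte markers and the lowest in the loss experiment was relative to Trac, Trbc1 and Trbc2. Relative to measured genes of like transcript length, the loss difference was 0.91 log2, under 2-fold.

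Plin2 made up 68.8% of the summed TPM of the 8 genes in the Klf4-transduced library and 19.4% in MigRI. It made up 11.3% in the Klf4 cKO-labelled library and 7.49% in control. The ratio of Plin2 to Plin3, the ubiquitous perilipin, was 2.63 in the Klf4-transduced library and 2.91 in MigRI, and 1.86 in the Klf4 cKO-labelled library and 1.13 in control. In the gain experiment the perilipins therefore differed by about as much: Plin3 was at 146 TPM in the Klf4-transduced library and 17.3 TPM in MigRI, a relative difference of 2.21 log2. Plin3 was at 17.2 TPM in the Klf4 cKO-labelled library and 5.93 TPM in control, a relative difference of 0.65 log2. Plin1, the adipocyte perilipin, and Plin5, the perilipin of oxidative tissues, were listed at 0 in all 4 libraries.

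Hilpda, a hypoxia-induced droplet protein that inhibits triglyceride lipase, did not follow Plin2 in the gain experiment but lay close to it in the loss experiment. It was at 419 TPM in the Klf4-transduced library and 542 TPM in MigRI, a relative difference of -1.16 log2. It was at 845 TPM in the Klf4 cKO-labelled library and 202 TPM in control, a relative difference of 1.32 log2. The ratio of Hilpda to Plin2 was 1.09 in the Klf4-transduced library and 10.8 in MigRI, and 26.5 in the Klf4 cKO-labelled library and 30.2 in control. The ratio was thus similar in the Klf4 cKO-labelled and control libraries and differed widely between the Klf4-transduced and MigRI libraries.

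Acadl, long-chain acyl-CoA dehydrogenase, which catalyses the opening step of mitochondrial beta-oxidation, was at 82.6 TPM in the Klf4-transduced library and 46.0 TPM in MigRI. It was at 68.4 TPM in the Klf4 cKO-labelled library and 15.4 TPM in control. The control library stood lowest. For Klf4 cKO over control the difference was 2.09 log2 as deposited and 1.35 log2 after median centring, and 0.90 log2 relative to genes of like transcript length. It was 0.27 log2 relative to Trac, Trbc1 and Trbc2 and 0.41 log2 relative to the median macrophage and monocyte marker, so these 3 alternatives put Acadl below 2-fold. For Klf4-transduced over MigRI it was 0.83 log2 as deposited and 0.04 log2 after median centring. The ratio of Acadl to Acadm, the medium-chain enzyme, was 1.60 in the Klf4-transduced library and 3.30 in MigRI, and 4.46 in the Klf4 cKO-labelled library and 1.53 in control.

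Cpt1a, the rate-limiting enzyme of fatty acid entry into mitochondria, was low in all 4 libraries. It was at 2.10 TPM in the Klf4-transduced library and 1.01 TPM in MigRI, a difference of 0.63 log2 as deposited and -0.17 log2 after median centring. It was at 2.55 TPM in the Klf4 cKO-labelled library and 1.09 TPM in control, a difference of 0.77 log2 as deposited and 0.03 log2 after median centring. Acadl thus exceeded Cpt1a by ratios of 39.4 in the Klf4-transduced library, 45.8 in MigRI, 26.8 in the Klf4 cKO-labelled library and 14.1 in control. The muscle form Cpt1b was at 3.8e-05 TPM in the Klf4-transduced library and listed at 0 in the other 3.

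Promoter sequence was available for 5 of the 8 genes in RefSeq tables on GRCm38.p6, as 250 bases before to 50 bases after the transcription start. Plin2 and Acadl are shown because they were the genes with a promoter entry that were at least 2-fold higher in the Klf4 cKO-labelled library, and because a Kruppel-like factor motif was found in each. The motif searched was GGGNGTGG on both strands, which overlaps no other motif searched, and its match is in capitals. The Plin2 window is chr4:86670010-86670309 on the minus strand and the Acadl window is chr1:66863260-66863559 on the minus strand, and both are printed along the gene.
Plin2: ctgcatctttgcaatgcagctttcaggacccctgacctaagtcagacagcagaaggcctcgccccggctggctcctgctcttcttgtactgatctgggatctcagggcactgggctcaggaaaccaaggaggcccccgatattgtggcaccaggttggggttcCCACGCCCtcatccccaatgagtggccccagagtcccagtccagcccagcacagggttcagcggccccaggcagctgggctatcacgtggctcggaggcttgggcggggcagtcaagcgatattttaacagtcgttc
Acadl: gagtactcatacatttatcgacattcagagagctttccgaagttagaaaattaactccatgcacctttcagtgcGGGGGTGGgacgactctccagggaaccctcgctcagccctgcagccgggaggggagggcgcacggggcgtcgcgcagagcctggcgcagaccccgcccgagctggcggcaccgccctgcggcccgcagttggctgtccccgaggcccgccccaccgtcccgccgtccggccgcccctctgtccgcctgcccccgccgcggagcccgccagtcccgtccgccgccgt

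The motif begins 87 bases before the start in Plin2, read on the opposite strand, and 176 bases before the start in Acadl. It occurs in 17.6% of all 32851 promoter windows of this length, so a match is a description of the letters and not a binding site. The windows of Cd36, Cpt1a and Pparg held no match. The direct repeat bound by PPAR with its partner RXR, AGGTCA repeated with 1 base between and read on both strands, was in none of the windows of these 5 genes and in 0.0396% of all windows. The Acadl window was 70.3% G and C and the Plin2 window 60.7%.

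Of the remaining members, GENCODE vM21 (mm10) places Cd36 on the minus strand of chromosome 5 from 17781690 to 17888801 and Lpl on chromosome 8 from 68880491 to 68907448 on the plus strand. Plin2 lies on chromosome 4 from 86648386 to 86670060 and Acadl on chromosome 1 from 66830839 to 66863277, both on the minus strand. Pparg lies on chromosome 6 from 115360951 to 115490399 and Cpt1a on chromosome 19 from 3322334 to 3385733, both on the plus strand. Without strand information, reads of the antisense gene Gm44079 within Pparg cannot be told apart from those of Pparg. The pseudogene Gm15793 within Acadl was below 0.5 TPM in all 4 libraries.

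Beyond the 8 genes, 11 lists of fatty acid metabolism held 106 genes, of which 76 were measured. Some of the 76 passed the filter on low values only through the library where they were high, which favours a call there. In the Klf4-transduced library, 60 were at least 2-fold higher and 1 lower than in MigRI as deposited, and 37 were higher and 7 lower after median centring. Of all measured genes 43.7% were higher and 10.3% lower as deposited, and 21.4% and 23.6% after median centring. The median relative difference of the pathway genes was 0.91 log2, where that of all measured genes is 0 by construction. In the Klf4 cKO-labelled library, 30 were at least 2-fold higher and 0 lower than in control as deposited, and 16 were higher and 4 lower after median centring. Of all measured genes 38.4% and 6.92% did so as deposited, and 12.4% and 16.2% after median centring. The median relative difference of the pathway genes was 0.06 log2.

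By list, the median relative difference for Klf4-transduced over MigRI was highest for uptake genes at 1.57 log2, synthesis genes at 1.36 log2, carnitine shuttle genes at 1.29 log2 and peroxisomal genes at 1.16 log2. It was 0.91 log2 for lipolysis, 0.81 log2 for nuclear receptors, 0.74 log2 for mitochondrial oxidation, 0.65 log2 for acyl-CoA synthetases and 0.64 log2 for triglyceride synthesis. It lay below 0 for droplet genes at -0.43 log2 and for the carriers Dbi and Acbd3 at -1.15 log2. For Klf4 cKO over control the order was different: mitochondrial oxidation had 1.00 log2, droplet genes 0.89 log2, uptake genes 0.70 log2 and lipolysis genes 0.60 log2. Peroxisomal genes had 0.19 log2, synthesis genes -0.22 log2, triglyceride synthesis -0.15 log2, acyl-CoA synthetases -0.10 log2, and Dbi with Acbd3 -1.61 log2. The medians of the carnitine shuttle and nuclear receptor lists lay within 0.01 log2 of 0.

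**Figure D3:**
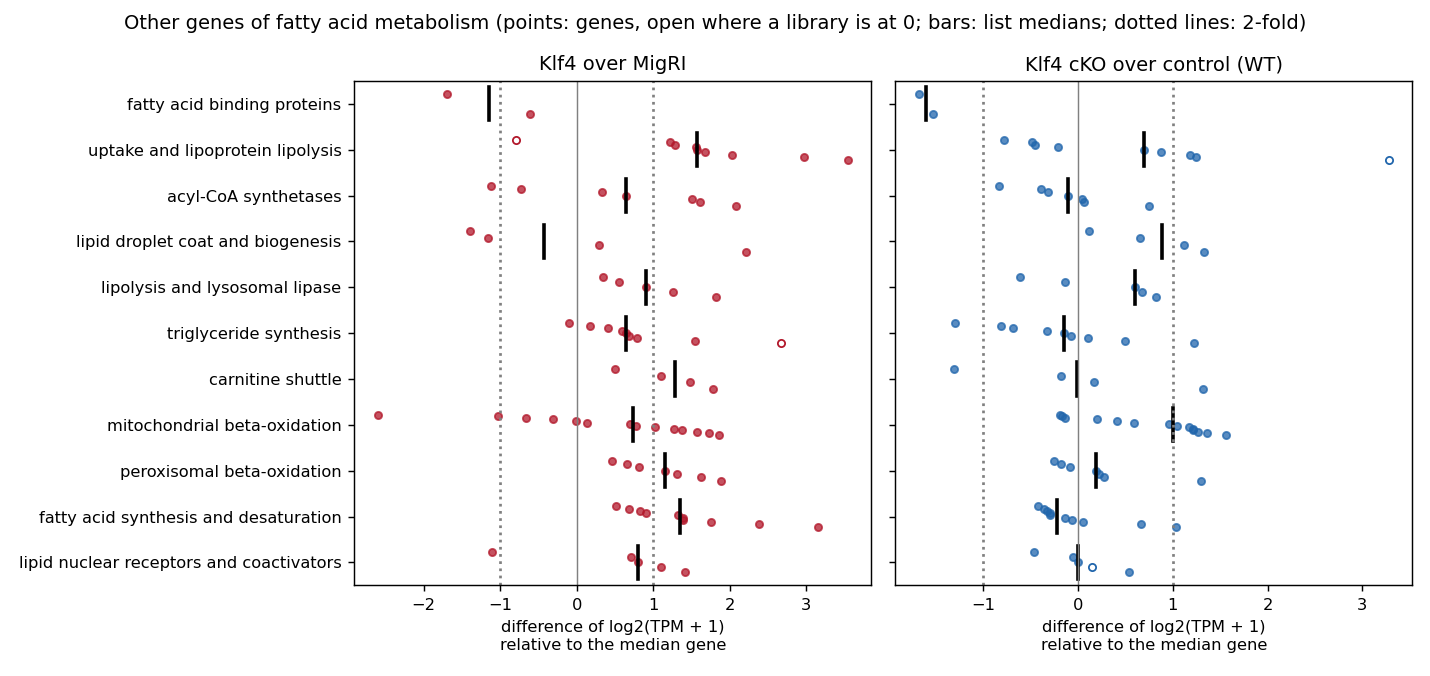
Relative difference of log2(TPM + 1) of the 76 measured pathway genes by list, for Klf4-transduced over MigRI (left) and Klf4 cKO over control (right); points are genes, open where a library is at 0, and black bars are list medians. Synthesis and uptake genes lie mostly right of 0 in the left panel, and mitochondrial beta-oxidation genes have the highest list median, 1.00 log2, in the right panel.

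Of 9 measured uptake and lipoprotein genes, 8 were at least 2-fold higher in the Klf4-transduced library after median centring and 0 lower, where 21.4% of all measured genes were higher. Among the 8, Slc27a4 and Lrp1 were at 7.04 and 4.29 TPM in that library and 0.571 and 0.315 TPM in MigRI. Both passed the filter on low values only through the Klf4-transduced library, which favoured their calls. Slc27a1, a fatty acid transport protein, was at 47.7 TPM in the Klf4-transduced library and 2.58 TPM in MigRI, a relative difference of 2.97 log2. Cav1, the caveolae protein caveolin 1, was at 176 TPM in the Klf4-transduced library and 7.76 TPM in MigRI, a relative difference of 3.55 log2. Lmf1, which matures lipoprotein lipase, was at 48.5 TPM in the Klf4-transduced library and 5.96 TPM in MigRI, a relative difference of 2.03 log2. Lpl and its maturation factor were thus both higher in that library. So was Angptl4, a secreted inhibitor of lipoprotein lipase, at 20.8 TPM with Klf4 and 4.14 TPM in MigRI, a relative difference of 1.29 log2. Lmf1 was also at 7.77 TPM in the Klf4 cKO-labelled library and 1.87 TPM in control, a relative difference of 0.87 log2.

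In the Klf4 cKO-labelled library, 3 of 9 uptake genes were at least 2-fold higher after median centring and 0 lower, where 12.4% of all measured genes were higher. Gpihbp1, the protein that anchors lipoprotein lipase to capillary endothelium, was at 15.2 TPM in that library and listed at 0 in the other 3, so no fold is given. It passed the filter on low values only through the library where it was high, which fixed its place among the 3. Angptl4 was at 5.48 TPM in the Klf4 cKO-labelled library and 0.719 TPM in control, a relative difference of 1.18 log2. Cav1 was at 17.0 TPM in the Klf4 cKO-labelled library and 3.54 TPM in control, a relative difference of 1.25 log2.

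Of 10 measured synthesis and desaturation genes, 6 were at least 2-fold higher in the Klf4-transduced library after median centring and 0 lower, where 21.4% of all measured genes were higher and 23.6% lower. Fads1 and Fads2, the desaturases of polyunsaturated fatty acids, were at 39.4 and 69.6 TPM in the Klf4-transduced library and 3.46 and 3.56 TPM in MigRI, relative differences of 2.39 and 3.16 log2. Scd1, which makes monounsaturated fatty acids, was at 11.3 TPM in the Klf4-transduced library and 1.09 TPM in MigRI, a relative difference of 1.76 log2. In the Klf4 cKO-labelled library 1 of 10 was at least 2-fold higher and 0 lower, a share near the 12.4% of all measured genes that were higher. That gene was Elovl1, an elongase of very long chains, at 62.1 TPM in the Klf4 cKO-labelled library and 17.5 TPM in control.

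Storage genes divided in the gain experiment. Of 4 measured droplet genes, 1 was at least 2-fold higher in the Klf4-transduced library after median centring and 2 lower, and 2 were higher and 0 lower in the Klf4 cKO-labelled library. Of all measured genes, 21.4% were higher and 23.6% lower in the Klf4-transduced library, and 12.4% and 16.2% in the Klf4 cKO-labelled library. Dgat2, which makes triglyceride, was at 10.01 TPM in the Klf4-transduced library and listed at 0 in MigRI, and it passed the filter on low values only through the Klf4-transduced library. Of 9 measured triglyceride synthesis genes, 2 (Dgat2 and Gpat4) were at least 2-fold higher in the Klf4-transduced library after median centring and 0 lower. In the Klf4 cKO-labelled library 1 was higher and 1 lower. The counts of higher genes lay near the shares of all measured genes that were higher. Of 5 measured lipolysis genes, 2 were higher in the Klf4-transduced library, the lysosomal lipase Lipa at 20.8 TPM against 2.57 TPM in MigRI and the triglyceride lipase Pnpla2 at 26.2 TPM against 5.56 TPM in MigRI. In the Klf4 cKO-labelled library 0 of 5 were 2-fold higher or lower on that scale. Beside the lipolysis counts stand the same shares over all measured genes. Bscl2, the droplet assembly protein seipin, was at 16.3 TPM in the Klf4-transduced library and 25.2 TPM in MigRI, and at 57.2 TPM in the Klf4 cKO-labelled library and 15.1 TPM in control, relative differences of -1.39 and 1.12 log2. Like Hilpda, Bscl2 lay on opposite sides of the median gene in the experiments.

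Of 7 measured acyl-CoA synthetases, which activate fatty acids for storage or oxidation, 3 were at least 2-fold higher and 1 lower in the Klf4-transduced library after median centring. Of all measured genes 21.4% were higher and 23.6% lower. Acss2, which activates acetate, was at 15.5 TPM in the Klf4-transduced library and 1.23 TPM in MigRI, a relative difference of 2.09 log2. In the Klf4 cKO-labelled library 0 of 7 were 2-fold higher or lower, where 12.4% and 16.2% of all measured genes were. Acsl5, a long-chain synthetase, was at 24.4 TPM in the Klf4 cKO-labelled library and 8.05 TPM in control, a relative difference of 0.75 log2.

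Of 14 measured mitochondrial beta-oxidation genes, 10 were at least 2-fold higher in the Klf4 cKO-labelled library as deposited, where 38.4% of all measured genes were. After median centring 7 of the 14 were, against 12.4% of all measured genes, and 0 were lower on either scale. Of 8 CD8 T cell markers, 4 were at least 2-fold higher and 1 lower in that library after median centring, with a median relative difference of 0.83 log2. That median was 0.94 log2 for macrophage and monocyte markers and 0.77 log2 for fibroblast markers. In the Klf4-transduced library 8 of 8 CD8 T cell markers were at least 2-fold lower on that scale, against 23.6% of all measured genes. The part of cell content in the oxidation gene values was not tested. Relative to Trac, Trbc1 and Trbc2, the T cell receptor constant genes, 1 of the 76 pathway genes was 2-fold higher in the Klf4 cKO-labelled library and 39 were lower. Hadh, which oxidises hydroxyacyl-CoA, was at 19.7 TPM in the Klf4 cKO-labelled library and 3.20 TPM in control, a relative difference of 1.56 log2. Eci2 and Echs1, which act on enoyl-CoA, were at 27.5 and 41.2 TPM in the Klf4 cKO-labelled library and 5.65 and 9.53 TPM in control, relative differences of 1.36 and 1.27 log2. Acadl, at 1.35 log2 on the same scale, lay within the range of these enzymes.

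In the Klf4-transduced library 6 of the 14 oxidation genes were at least 2-fold higher after median centring and 2 lower. Of all measured genes 21.4% were higher and 23.6% lower there, and 12.4% and 16.2% in the Klf4 cKO-labelled library. Hadh was at 79.0 TPM in the Klf4-transduced library and 11.7 TPM in MigRI, and Hadhb, of the trifunctional protein, at 63.5 TPM in the Klf4-transduced library and 10.2 TPM in MigRI, relative differences of 1.87 and 1.73 log2. Etfb, a subunit of the flavoprotein that takes electrons from acyl-CoA dehydrogenases, went the other way, at 255 TPM in the Klf4-transduced library and 895 TPM in MigRI, a relative difference of -2.60 log2. Of 4 measured carnitine shuttle genes, 3 were higher in the Klf4-transduced library and 0 lower, with Cpt2 at 23.9 TPM in that library and 4.13 TPM in MigRI. The others of these 3, Crat and Slc22a5, passed the filter on low values only through the Klf4-transduced library, which favoured their calls. In the Klf4 cKO-labelled library 1 of 4 was higher and 1 lower: Slc25a20, the carnitine carrier, was at 24.4 TPM in that library and 5.09 TPM in control, and Crat, which makes acetylcarnitine, at 0.440 TPM in that library and 1.15 TPM in control.

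Peroxisomal oxidation genes were at least 2-fold higher after median centring for 4 of 7 measured genes in the Klf4-transduced library and for 1 of 7 in the Klf4 cKO-labelled library, with 0 lower in either. Of all measured genes 21.4% were higher and 23.6% lower in the Klf4-transduced library. In the Klf4 cKO-labelled library 12.4% were higher and 16.2% lower, so 1 of 7 lay near the share that was higher. Hsd17b4, the peroxisomal multifunctional protein, was at 19.3 TPM in the Klf4-transduced library and 2.82 TPM in MigRI, a relative difference of 1.62 log2. Acaa1a, a peroxisomal thiolase, was at 34.9 TPM in the Klf4 cKO-labelled library and 7.78 TPM in control, a relative difference of 1.29 log2. Of 5 measured nuclear receptor and cofactor genes, 2 were higher and 1 lower in the Klf4-transduced library and 0 either way in the Klf4 cKO-labelled library. Rxrb, a heterodimer partner of PPARs, was at 30.4 TPM in the Klf4-transduced library and 5.80 TPM in MigRI. The coactivator gene Ppargc1a was listed at 0 in all 4 libraries.

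**Figure D4:**
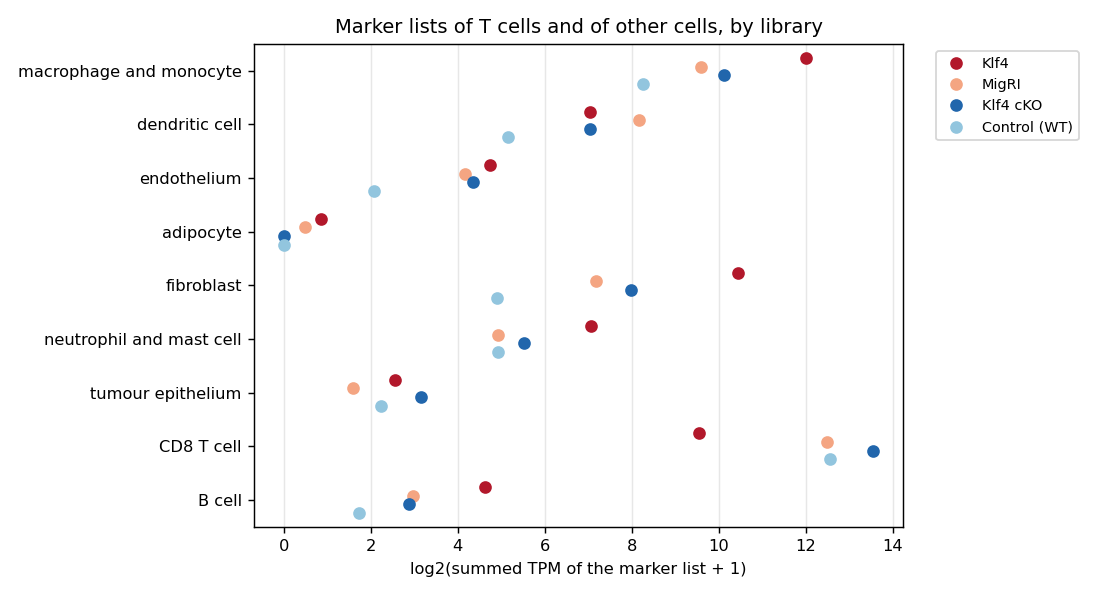
Summed TPM of each marker list, as log2(sum + 1), in the 4 libraries; each point is 1 library. Macrophage and fibroblast markers are highest in the Klf4-transduced library, where CD8 T cell markers are lowest, and adipocyte markers are near 0 in all 4.

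Markers of other cells that use these genes moved with several of the differences. Macrophage and monocyte markers summed to 4114 TPM in the Klf4-transduced library and 772 TPM in MigRI, with 10 of 11 measured markers at least 2-fold higher after median centring. They summed to 1119 TPM in the Klf4 cKO-labelled library and 303 TPM in control, with 5 of 11 higher. Of all measured genes 21.4% were higher in the Klf4-transduced library and 12.4% in the Klf4 cKO-labelled library on that scale. Lyz2, lysozyme of myeloid cells, was at 1423 TPM in the Klf4-transduced library and 344 TPM in MigRI, and at 256 TPM in the Klf4 cKO-labelled library and 52.5 TPM in control. As deposited, the median marker differed by 2.55 log2 and Plin2 by 2.91 log2 in the gain experiment, and the median marker by 1.67 log2 and Plin2 by 2.10 log2 in the loss experiment. The part of macrophage RNA in the Plin2, Lpl and Fabp4 values was not tested.

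Fibroblast markers summed to 1395 TPM in the Klf4-transduced library and 144 TPM in MigRI, with 8 of 8 at least 2-fold higher after median centring. Of these, Pdgfra passed the filter on low values only through the Klf4-transduced library. They summed to 251 TPM in the Klf4 cKO-labelled library and 28.9 TPM in control, with 3 of 8 higher. The shares of all measured genes that were higher were 21.4% and 12.4%. Their part in the lipid gene values was not tested. Of 8 adipocyte markers, 6 were listed at 0 in all 4 libraries: Adipoq, Lep, Retn, Cfd, Adrb3 and Pck1. The list summed to 0.813 TPM in the Klf4-transduced library and 0.398 TPM in MigRI, and all 8 were listed at 0 in the Klf4 cKO-labelled library and in control, so the library with 68.8 TPM of Fabp4 listed no adipocyte marker above 0.

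As deposited, endothelial markers moved with Fabp4 in the loss experiment, but not all did after median centring. The 8 markers summed to 19.5 TPM in the Klf4 cKO-labelled library and 3.21 TPM in control. As deposited all 8 were higher in the Klf4 cKO-labelled library, where 0 were at 0 and 5 were listed at 0 in control, and the median measured gene differed by 0.74 log2. After median centring, Pecam1 at -0.64 log2 and the low genes Kdr, Tek and Ptprb lay below the median gene. Of 3 measured markers, 2 were at least 2-fold higher on that scale and 0 lower, where 12.4% and 16.2% of all measured genes were. Emcn, an endothelial sialomucin, was at 4.22 TPM in the Klf4 cKO-labelled library and listed at 0 in the other 3. It passed the filter on low values only through the library where it was high, which fixed its place among the 2. Esam and Cdh5, endothelial adhesion molecules, were at 2.20 and 0.692 TPM in the Klf4 cKO-labelled library and listed at 0 in control. In the Klf4-transduced library they were at 0.584 and 0.796 TPM, so Cdh5 was highest there, as were Kdr and Egfl7. In the gain experiment the list summed to 25.9 TPM in the Klf4-transduced library and 17.0 TPM in MigRI, most of it from Egfl7 at 23.3 and 15.4 TPM. Without Pecam1, which T cells also express, and Egfl7, the remaining 6 markers summed to 1.69 TPM with Klf4 and 0.125 TPM in MigRI, and to 7.58 TPM in the Klf4 cKO-labelled library and 0.00988 TPM in control. Most of that 7.58 TPM came from Emcn and Esam. The full list was highest in the Klf4-transduced library and the remaining 6 in the Klf4 cKO-labelled library, so the exclusion changed the order. That exclusion and the naming of single markers other than Pecam1 and Egfl7 followed a look at the values. The part of endothelial RNA in the Fabp4 value was not tested.

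Of the other marker lists, neutrophil and mast cell markers summed to 132 TPM in the Klf4-transduced library and 29.6 TPM in MigRI, and to 45.2 TPM in the Klf4 cKO-labelled library and 29.6 TPM in control. Dendritic cell markers summed to 131 TPM in the Klf4-transduced library and 288 TPM in MigRI, and to 131 TPM in the Klf4 cKO-labelled library and 34.4 TPM in control, most of it from Ccr7, a chemokine receptor that T cells also express. Tumour epithelium markers summed to at most 7.86 TPM and B cell markers to at most 23.7 TPM in any library, and Krt19, Cdx2 and Ms4a1 were listed at 0 in all 4.

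The genes most like each member were found by the distance between their 4 values of log2(TPM + 1), each centred on its own mean over the 4 libraries, among 10294 candidates. For Fabp4 they were Gpihbp1, Hspb1 and Plvap, at distances of 1.02, 1.05 and 1.47 log2. Plvap, a protein of endothelial fenestrae, was at 1.80 TPM in the Klf4-transduced library and 0.602 TPM in MigRI, and at 8.84 TPM in the Klf4 cKO-labelled library and listed at 0 in control. Hspb1, the small heat shock protein HSP27, was at 3.79 TPM in the Klf4-transduced library and 1.80 TPM in MigRI, and at 27.5 TPM in the Klf4 cKO-labelled library and 2.00 TPM in control. Both were highest where Fabp4 was highest, which the search for patterns like that of Fabp4 fixed in advance. Like Gpihbp1, Plvap passed the filter on low values only through the Klf4 cKO-labelled library.

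**Figure D5:**
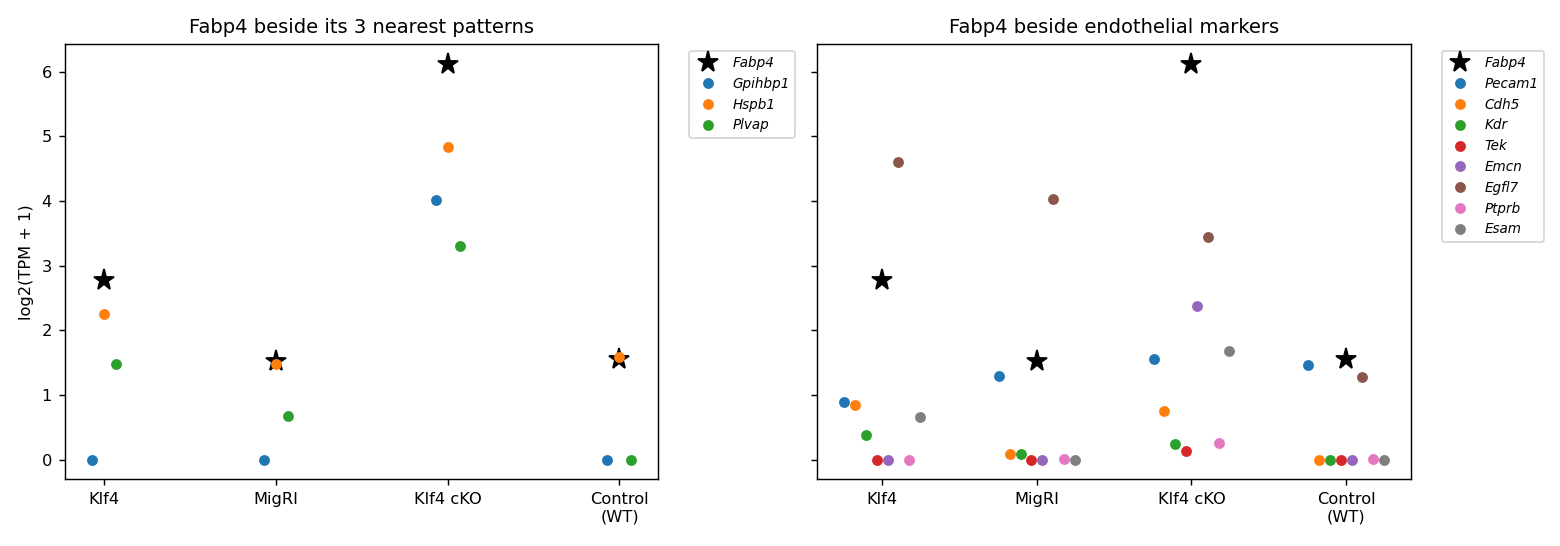
Values of log2(TPM + 1) in the 4 libraries for Fabp4 (stars) beside its 3 nearest genes (left) and beside the 8 endothelial markers (right); each point is 1 library and points are shifted sideways for clarity. Fabp4, Gpihbp1, Hspb1 and Plvap are each highest in the Klf4 cKO-labelled library, and the 3 nearest genes were picked for a pattern like that of Fabp4. Of the 8 markers, Emcn, Esam, Pecam1, Tek and Ptprb are highest in the Klf4 cKO-labelled library. Egfl7, Cdh5 and Kdr are highest in the Klf4-transduced library.

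Nearest genes were also sought for Fabp5, Cd36, Lpl, Plin2 and Pparg, and lay closer. For Fabp5 they were Dctn3, Plekhj1 and Chrac1, at distances of 0.04, 0.11 and 0.15 log2. Dctn3, a dynactin subunit, was at 314 TPM in the Klf4-transduced library and 671 TPM in MigRI, and at 446 TPM in the Klf4 cKO-labelled library and 275 TPM in control. For Plin2 they were Steap1, Osr1 and Renbp, at distances of 0.12, 0.17 and 0.31 log2. Steap1, a metalloreductase, was at 199 TPM in the Klf4-transduced library and 26.9 TPM in MigRI, and at 15.5 TPM in the Klf4 cKO-labelled library and 3.27 TPM in control. For Lpl they were Runx1, Nsmf and Xylt2, at 0.06, 0.06 and 0.07 log2. Those of the low genes Cd36 (Tpm4-ps, Serpini1 and Zdhhc8) and Pparg (Sdhaf3, Pym1 and Dgkz) lay within 0.11 log2, where small differences near the lower limit set the distance.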

How the data were processed

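TPM values per gene, 1 table for each of the 4 libraries, were deposited by the authors. Per the submitters' processing notes, Trimmomatic, HISAT2, StringTie and edgeR were used with build mm10; their versions, their roles and the annotation are not stated there. TPM keeps no read depth, so no counting error is given, and the kit does not mark strand. Each table held 45777 entries. In the control library's table, symbols had become dates at 26 entries, 22 were mapped back by name and 4 entries were left out.

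Differences are of log2(TPM + 1) within an experiment, a pseudocount of 1 that understates changes of low genes. Calls needed 1 log2 (2-fold) or more. Genes averaging at least 1 TPM counted as measured. No test was possible with 1 library per group. The members, the lists and the alternative settings were chosen with earlier results of these data known. Named were all 8 members, up to 3 measured genes per pathway list and comparison with the largest difference, the 2 highest markers per list, markers at 0 in all 4 libraries, and 3 nearest genes for 6 members. The text gives only some of the genes this rule picks, and 2 of them are not reported here. Other listed genes named in the text, among them Ppara, Ppard, Ppargc1a, Cpt1b, Acadm, the FABP and perilipin paralogs, Etfb and the fibroblast and endothelial markers beyond the rule, were chosen after their values were seen. GENCODE vM21 (mm10) gave lengths and coordinates, and RefSeq gave promoters. Python 3.11.15, pandas 2.3.3 and Biopython 1.88 were used.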

Additional observations from a re-analysis of the deposited data

How the results depend on the processing

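Of the 8 genes, 3 passed 2-fold upward and 1 downward in the Klf4-transduced library and 3 and 0 in the Klf4 cKO-labelled library, and of 76 measured pathway genes 60 and 1, and 30 and 0. After median centring the pathway counts were 37 higher and 7 lower, and 16 and 4. With median of ratios scaling they were 35 and 6, and 14 and 4, and with quantile normalization 33 and 3, and 13 and 3. Without the 50 most abundant genes, 2 pathway genes were lower in the Klf4-transduced library and 1 in the Klf4 cKO-labelled library. The share of all measured genes was computed only as deposited and after median centring. The counts under the other settings thus have no such share beside them and are not read as a trait of these genes. At a pseudocount of 0.1 TPM, 7 of the 8 genes were higher and 1 pathway gene lower in the Klf4 cKO-labelled library. Cd36 and Pparg, listed at 0 in control, are among those 7. Relative to Trac, Trbc1 and Trbc2, 7 of the 8 genes were higher and 0 lower in the Klf4-transduced library, with 0 pathway genes lower, and in the Klf4 cKO-labelled library 1 was higher and 5 lower, with pathway counts of 1 and 39. Fabp5 then reversed to 0.96 log2 in the Klf4-transduced library. Alternatives chosen after seeing the data were differences relative to the median macrophage and monocyte marker and relative to genes of like coding transcript length. Against the markers, 0 of the 8 genes were higher and 6 lower in the Klf4-transduced library and 1 and 2 in the Klf4 cKO-labelled library, with pathway counts of 3 and 32, and 1 and 34. Fabp4 and Lpl then reversed to -1.31 and -0.0065 log2 in the Klf4-transduced library. Against genes of like length, 2 of the 8 were lower in the Klf4-transduced library and 1 was higher in the Klf4 cKO-labelled library, with pathway counts of 28 and 7, and 6 and 3. Beyond the subtraction or rescaling itself, the cause was not tested. The other counts, under a pseudocount of 5 TPM, no filter, a mean of at least 5 TPM, or TPM rescaled after removal of mitochondrial, ribosomal protein and receptor segment genes, stayed within 1.5 times. No paired analysis was possible because each group held 1 library. The unknown depth limits Cd36, Pparg, Lpl and Cpt1a most, since they lay near or below 1 TPM in several libraries.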
